A study of Homo sapiens with 12 samples.

Results

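Cholesterol and fatty acid synthesis genes were followed in LNCaP, a human prostate cancer cell line, transfected with a microRNA or with a scramble control. The set holds 32 genes chosen by symbol, with 18 sterol steps, 10 fatty acid steps and 4 regulators. Of these, 28 were named on the arrays by a probe set with 1 gene symbol, and all 28 were bright enough to be tested, among 6821 genes tested of 11963 named. The 4 groups were miR-130a, miR-203, miR-205 and scramble, each with 3 arrays of total RNA from transfected cells, named biological replicates in the labels. Every group consists of transfected LNCaP cells of the same line, so transfection itself is shared with the control. No dose, vector or time after transfection is given in the labels, and no label says whether the replicates were separate cultures, so p-values measure only the spread between these arrays.

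Cells build cholesterol from acetyl-CoA through mevalonate, isoprenoids, squalene and a series of sterol conversions. Fatty acids are built from the same acetyl-CoA by carboxylation, chain building, elongation and desaturation. The SREBP transcription factors, encoded by SREBF1 and SREBF2, drive both branches: SCAP escorts them from the endoplasmic reticulum to the Golgi for cleavage when sterols are low, and INSIG proteins hold SCAP back when sterols are high. Androgens are known to stimulate lipid synthesis in LNCaP cells, and prostate tumours are known for active fatty acid synthesis.

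The microRNAs define the groups, and a microRNA recognises its targets mainly through its seed, bases 2 to 8, shown here in capitals. The labels name no arm, and the arms usually studied are miR-130a-3p, miR-203a-3p and miR-205-5p. The RefSeq sequences of the latter pair, which differ in their seeds, are given on the lines that follow, 5′ to 3′.
hsa-miR-203a-3p: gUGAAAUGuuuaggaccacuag
hsa-miR-205-5p: uCCUUCAUuccaccggagucug

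Promoter sequences are shown because members of the set are known to share regulation by SREBPs, which act together with NF-Y and SP1 at many of these genes. RefSeq windows (GRCh38.p14) ran from 250 bases before to 50 bases after a gene's start. None was found for ACAT2, FASN, FDFT1 and SQLE, and the other 28 of the 32 genes had 40 windows. These windows were searched on both strands for TCACNCCAC, a form of the sterol regulatory element, for CCAAT, the NF-Y box, and for GGGCGG, the SP1 box; CCAATTGG holds an NF-Y box on each strand and counts for both. The letters TCACNCCAC occurred in the window of SREBF2 alone among the members, and in 1.13% of all 35116 windows. At least 1 NF-Y box was found for 21 of the 28 genes, among them 13 of 15 sterol steps and 6 of 9 fatty acid steps. By windows this was 62.5% of those of the members and 34.6% of all windows. The SP1 box occurred in 85% of the members' windows and 45% of all windows. A match is a description of the letters and no evidence of binding. The stretches of 100 bases before the start site with the most NF-Y boxes and sterol elements are given for 6 members. They are read on the gene's strand, with NF-Y boxes (CCAAT or ATTGG) and the sterol element in capitals.
MSMO1, chr4:165327569-165327668, plus strand: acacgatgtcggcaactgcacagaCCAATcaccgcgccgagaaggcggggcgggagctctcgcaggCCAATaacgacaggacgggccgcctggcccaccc
HMGCS1, chr5:43313478-43313577, minus strand: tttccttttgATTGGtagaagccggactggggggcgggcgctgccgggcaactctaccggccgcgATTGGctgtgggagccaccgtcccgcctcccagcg
LSS, chr21:46228835-46228934, minus strand: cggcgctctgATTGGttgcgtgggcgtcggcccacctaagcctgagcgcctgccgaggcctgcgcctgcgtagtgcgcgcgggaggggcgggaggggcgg
SCD, chr10:100346994-100347093, plus strand: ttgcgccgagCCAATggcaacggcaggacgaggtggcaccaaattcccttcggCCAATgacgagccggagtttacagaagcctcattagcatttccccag
INSIG1, chr7:155297698-155297797, plus strand: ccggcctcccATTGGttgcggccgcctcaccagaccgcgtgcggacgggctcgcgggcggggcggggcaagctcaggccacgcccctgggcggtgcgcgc
SREBF2, chr22:41832962-41833061, plus strand: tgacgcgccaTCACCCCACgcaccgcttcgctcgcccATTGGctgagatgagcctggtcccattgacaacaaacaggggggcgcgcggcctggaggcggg
In the 250 bases before and 50 after the start, no NF-Y box was found for CYP51A1, ELOVL6, FADS1, LPIN1, PMVK, SCAP or SREBF1.

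The deposited values are log2 expression values, and 1 unit is a doubling of signal. Array medians lay between 2.76 and 2.78, arrays of a group correlated across the tested genes with r from 0.992 to 0.997, and arrays of different groups with r from 0.964 to 0.986. The number of arrays limits the precision. Of 8 luminal prostate markers named on the arrays, KLK3, KLK2, TMPRSS2, FOLH1, KRT8, KRT18, ACP3 and HOXB13, all were above the array median on all 12 arrays. The 4 leukocyte, 2 basal and 4 liver and fat cell markers named were above it on none. Of 5 fibroblast and endothelial markers, COL1A1 was above it on all 12 arrays (at most 3.46), COL3A1 on 2 and the others on none. As a measure of RNA quality, the 3′ signal of ACTB minus its 5′ signal had overlapping ranges in the 4 groups. For GAPDH this value ran from 0.74 to 0.80 on the miR-203 arrays, from 0.72 to 0.74 with miR-130a, from 0.60 to 0.73 with miR-205 and from 0.56 to 0.90 with scramble; its part in the results was not tested.

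The members changed in different directions in different groups: more members rose than fell against scramble with miR-130a and with miR-205, and more fell than rose with miR-203. With miR-130a, 11 of the 28 members rose and 2 fell, where 12% of all genes tested rose and 11.6% fell. With miR-203, 1 rose and 13 fell, against 17.3% and 18.9% of all genes. With miR-205, 14 rose and 3 fell, against 11.3% and 14.8% of all genes. A change was called at a Benjamini-Hochberg adjusted p under 0.05 over all 6821 genes in limma's fit of the 12 arrays. By the moderated F-test over the 4 groups, 26 of the 28 members differed, against 60.8% of all genes; the exceptions were MVD and HSD17B7. The miR-203 mean was the lowest of the 4 group means for 21 members (25.8% of all genes) and the highest for 0 (32.0% of all genes). Because the arrays measure bulk RNA, fewer cells with a transcript and less of it per cell cannot be told apart.

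**Figure D1:**
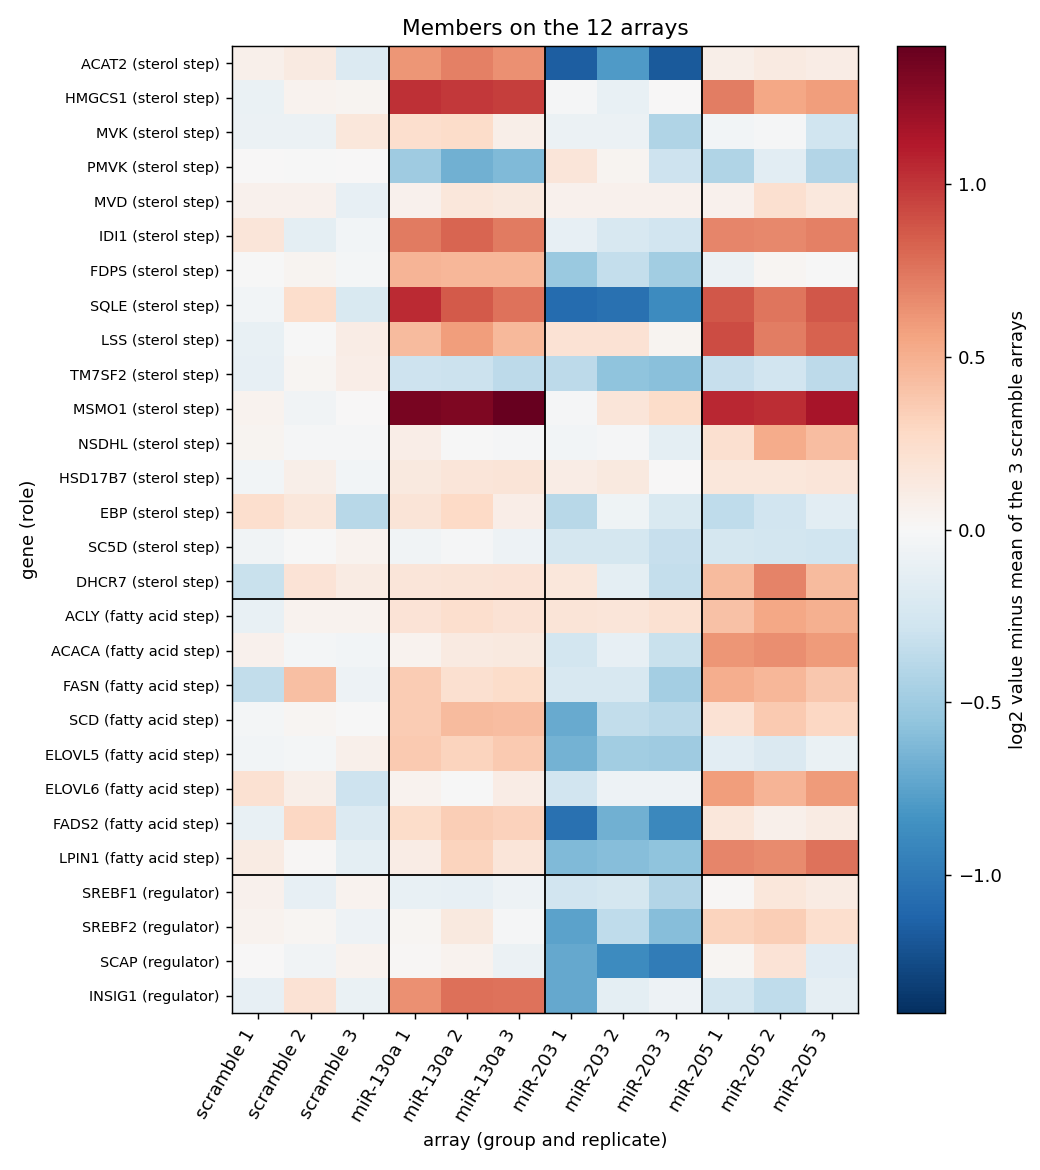
The log2 value of each of the 28 measured members (rows, grouped by role) on each of the 12 arrays (columns, grouped by treatment), minus the mean of the 3 scramble arrays; red is higher and blue lower. MSMO1, HMGCS1, IDI1, SQLE and LSS are higher on all miR-130a and miR-205 arrays, while ACAT2, SQLE, FADS2 and SCAP are lowest on the miR-203 arrays.

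The entry into the mevalonate pathway differed among the groups for both of its first enzymes. ACAT2, the cytosolic thiolase that joins acetyl-CoA units, read 7.03, 7.09 and 6.77 on the scramble arrays, 7.58, 7.66 and 7.60 with miR-130a, 5.80, 6.16 and 5.78 with miR-203 and 7.04, 7.08 and 7.06 with miR-205. Its 3 miR-130a arrays lay above and its 3 miR-203 arrays below every scramble array, while miR-205 overlapped with scramble. ACAT2 rose by 0.65 ± 0.11 with miR-130a (adjusted p = 0.000652), fell by 1.04 ± 0.11 with miR-203 (adjusted p = 9.03e-06) and differed by 0.10 ± 0.11 with miR-205 (adjusted p = 0.54), given as log2 differences from scramble ± SE of the limma fit. HMGCS1, which makes HMG-CoA, read 5.20, 5.35 and 5.34 with scramble, 6.32, 6.29 and 6.27 with miR-130a, 5.29, 5.19 and 5.31 with miR-203 and 6.02, 5.84 and 5.88 with miR-205. The miR-130a arrays were the highest, the miR-205 arrays came next without overlap, and scramble and miR-203 overlapped. HMGCS1 rose by 0.99 ± 0.07 with miR-130a, which is 1.99-fold, and by 0.61 ± 0.07 with miR-205, and differed by -0.04 ± 0.07 with miR-203 (adjusted p = 0.732).

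Among the middle steps, from mevalonate to farnesyl diphosphate, the isomerase and the synthase changed and the kinases and decarboxylase mostly did not rise. IDI1, the isopentenyl diphosphate isomerase, read 7.47, 7.17 and 7.27 with scramble, 8.04, 8.12 and 8.04 with miR-130a, 7.19, 7.09 and 7.03 with miR-203 and 7.99, 7.98 and 8.01 with miR-205. The miR-130a and miR-205 arrays were all above the scramble arrays, and IDI1 rose by 0.76 ± 0.08 and by 0.69 ± 0.08 respectively. With miR-203 it differed by -0.20 ± 0.08 and did not pass (adjusted p = 0.0717); leaving out miR-203 replicate 1 or scramble replicate 2 made it pass (adjusted p = 0.0496 and adjusted p = 0.0285), while without scramble replicate 1 it was -0.12 (adjusted p = 0.254). Its probe sets are of the kind whose probes can match other transcripts too, which makes the IDI1 level uncertain. FDPS, farnesyl diphosphate synthase, read 8.06, 8.10 and 8.04 with scramble, 8.55, 8.53 and 8.53 with miR-130a, 7.54, 7.74 and 7.58 with miR-203 and 7.98, 8.10 and 8.06 with miR-205. It rose by 0.47 ± 0.07 with miR-130a (adjusted p = 0.000314) and fell by 0.45 ± 0.07 with miR-203 (adjusted p = 0.000282), with no overlap, and differed by -0.02 ± 0.07 with miR-205.

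PMVK, phosphomevalonate kinase, went the other way. It read 6.61, 6.60 and 6.62 on the scramble arrays, 6.10, 5.94 and 5.99 with miR-130a, 6.78, 6.65 and 6.32 with miR-203 and 6.19, 6.46 and 6.20 with miR-205. The miR-130a and miR-205 arrays lay below all scramble arrays, and PMVK fell by 0.60 ± 0.11 with miR-130a (adjusted p = 0.00185) and by 0.32 ± 0.11 with miR-205 (adjusted p = 0.0485). The miR-205 call ended under 12 of 20 alternatives (adjusted p from 0.0524 to 0.158), among them the fits without any 1 of the scramble or miR-130a arrays, without miR-205 replicate 1 or 3 or without miR-203 replicate 2. MVK, mevalonate kinase, was called against scramble in none of the groups, with differences of 0.19 ± 0.11, -0.20 ± 0.11 and -0.11 ± 0.11 for miR-130a, miR-203 and miR-205. MVD, the decarboxylase, was the dimmest member, with group means from 2.94 to 3.08 close to the array median, and differed from scramble by 0.12 ± 0.07, 0.06 ± 0.07 and 0.14 ± 0.07. Its 3 miR-203 values were exactly equal, and MVK and NSDHL also have equal values within a group, which narrows their measured spread. The repeated values also recur across groups: 2.99534 for MVD in every group, and 3.82077 for MVK and 4.71557 for NSDHL with both scramble and miR-203. The differences of these genes thus rest partly on repeated values, whose origin was not tested.

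From squalene epoxidation on, the largest rise from scramble was that of MSMO1, and SQLE and LSS changed too. SQLE, squalene epoxidase, read 5.93, 6.21 and 5.75 with scramble, 7.01, 6.81 and 6.72 with miR-130a, 4.88, 4.91 and 5.08 with miR-203 and 6.83, 6.71 and 6.83 with miR-205. The miR-130a and miR-205 arrays overlapped with each other above all scramble arrays, and the miR-203 arrays lay below all others. SQLE rose by 0.88 ± 0.11 with miR-130a, by 0.83 ± 0.11 with miR-205 and fell by 1.00 ± 0.11 with miR-203, which is 2.004-fold lower (adjusted p = 2.15e-05). MSMO1, a methylsterol oxidase that removes methyl groups from sterols, read 8.29, 8.20 and 8.24 with scramble, 9.57, 9.55 and 9.64 with miR-130a, 8.23, 8.41 and 8.50 with miR-203 and 9.30, 9.27 and 9.40 with miR-205. It rose by 1.34 ± 0.08 with miR-130a, 2.54-fold (adjusted p = 6.15e-08), and by 1.08 ± 0.08 with miR-205, 2.11-fold (adjusted p = 9.96e-07). With miR-203 it overlapped with scramble and differed by 0.14 ± 0.08 (adjusted p = 0.189, and 0.0417 without miR-203 replicate 1), or by 0.08 without miR-203 replicate 3. LSS, which closes the sterol ring system, read 6.15, 6.24 and 6.36 with scramble, 6.70, 6.84 and 6.71 with miR-130a, 6.45, 6.46 and 6.29 with miR-203 and 7.16, 6.97 and 7.08 with miR-205. LSS rose by 0.82 ± 0.08 with miR-205 and by 0.50 ± 0.08 with miR-130a, and differed by 0.15 ± 0.08 with miR-203; averaged over its probe sets, of which 1 was dim on all arrays, the rises were 0.46 and 0.22.

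Among the other sterol conversions, which lie both before and after MSMO1, no difference from scramble was as large as the rises of MSMO1. Their directions were mixed. TM7SF2, a sterol reductase, was the sterol step that fell in all 3 comparisons, by 0.32 ± 0.08, 0.51 ± 0.08 and 0.32 ± 0.08 with miR-130a, miR-203 and miR-205. Its scramble arrays read 9.27, 9.41 and 9.48, and every other array read between 8.80 and 9.12. SC5D, a desaturase, fell by 0.27 ± 0.06 with miR-203 and by 0.26 ± 0.06 with miR-205, where its call ended with the mean of its probe sets (adjusted p = 0.194, difference -0.10), and differed by -0.04 ± 0.06 with miR-130a. With the same mean its miR-203 difference was -0.16. The SC5D probe set not used in the fit was dim on all arrays, with group means from 2.38 to 2.47. NSDHL, a sterol dehydrogenase, read 4.96, 5.25 and 5.16 with miR-205 and between 4.59 and 4.83 on all other arrays, a rise of 0.39 ± 0.08 (0.24 with the mean of its probe sets). DHCR7, the last reductase of the pathway, read 7.07, 7.32 and 7.07 with miR-205 and 6.31, 6.82 and 6.74 with scramble, a rise of 0.53 ± 0.14 whose call ended without scramble replicate 1 (difference 0.37, adjusted p = 0.0544) or miR-205 replicate 2 (0.44, adjusted p = 0.0599). EBP, a sterol isomerase, and HSD17B7, a ketosteroid reductase, passed against scramble in none of the 3 comparisons, with differences from -0.26 ± 0.14 to 0.18 ± 0.14 and from 0.08 ± 0.07 to 0.16 ± 0.07. Scramble replicate 3 was the lowest of the EBP scramble arrays at 6.50, and without it EBP passed with miR-203 (-0.41, adjusted p = 0.0117) and miR-205 (-0.45, adjusted p = 0.00998), while the miR-130a difference was -0.01. Without scramble replicate 1 the same EBP differences were -0.10, -0.14 and 0.30, and that with miR-203 was -0.14 without scramble replicate 2 or miR-203 replicate 1, none of them passing. With averaged probe sets EBP passed with miR-130a (0.26, adjusted p = 0.0121). HSD17B7 passed with miR-130a and miR-205 when dim genes were kept in the test (adjusted p = 0.0398 and 0.0385). The HSD17B7 probe set is of the kind that can match other transcripts.

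**Figure D2:**
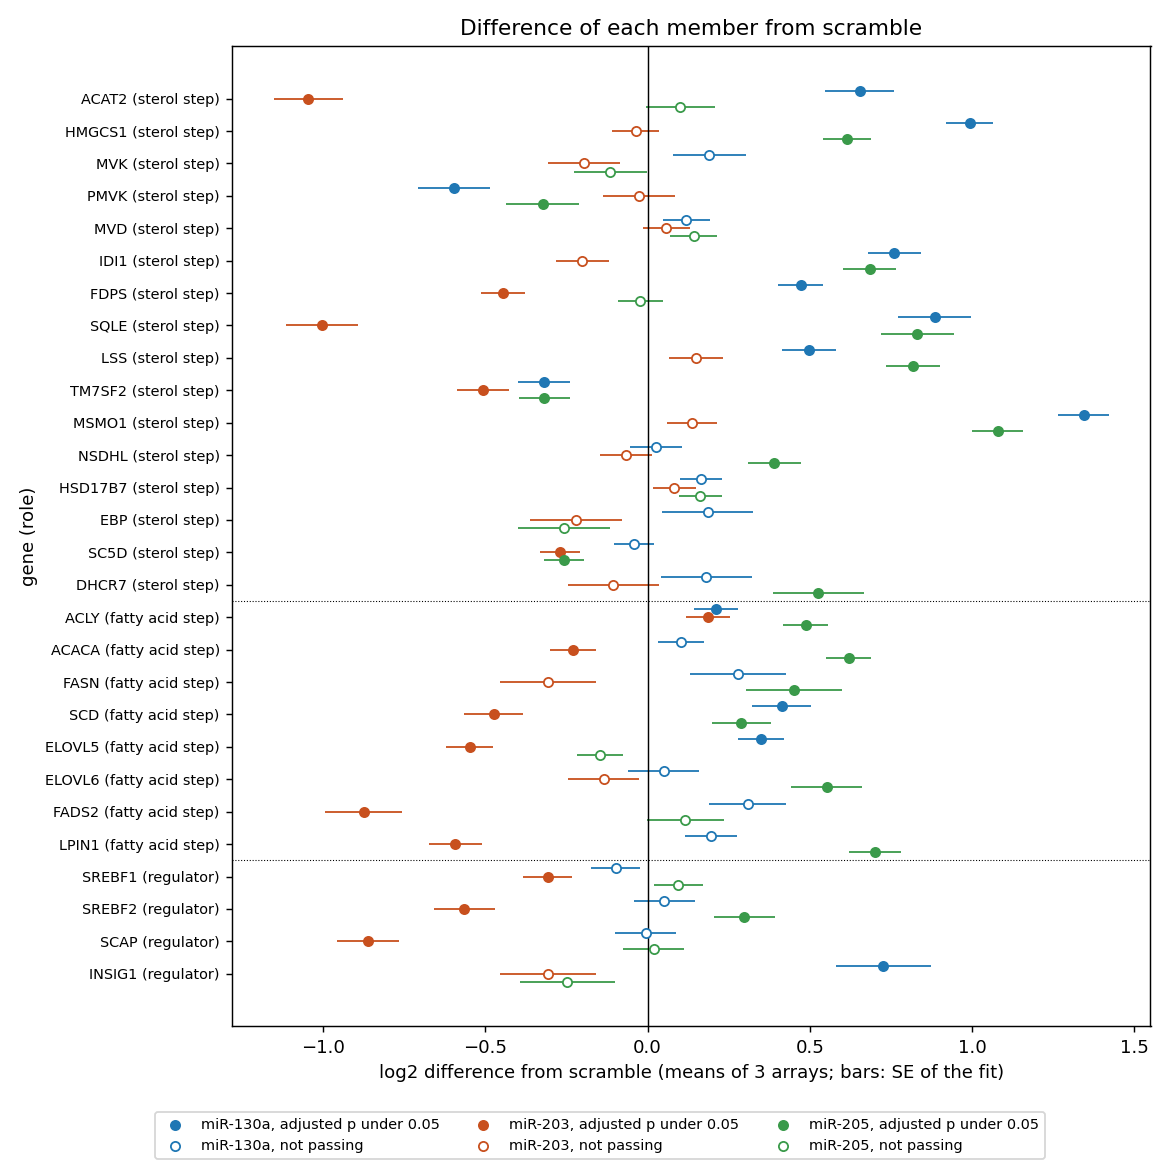
The log2 difference of each member's group mean from the scramble mean (horizontal axis), with the SE of the limma fit, for miR-130a, miR-203 and miR-205; filled points passed an adjusted p under 0.05 and open points did not. Among sterol steps the points for miR-130a and miR-205 reach 1.34 and 1.08 at MSMO1, while the miR-203 points reach -1.04 at ACAT2.

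Fatty acid synthesis starts with cytosolic acetyl-CoA and its carboxylation, and both enzymes measured there were highest with miR-205. ACLY, ATP citrate lyase, read 8.55, 8.71 and 8.71 with scramble, 8.85, 8.90 and 8.86 with miR-130a, 8.84, 8.82 and 8.87 with miR-203 and 9.07, 9.20 and 9.16 with miR-205. It was the single member that rose in all 3 comparisons, by 0.21 ± 0.07, 0.19 ± 0.07 and 0.49 ± 0.07. The miR-130a and miR-203 calls of ACLY were near the threshold and ended under 11 and 14 of 20 alternatives (adjusted p up to 0.472 and 0.747). Both were lost when scramble replicate 1 was left out (adjusted p = 0.116 and 0.154), without scramble replicate 3, and without any 1 array of the microRNA compared; the miR-130a call ended also without miR-203 replicate 2 or miR-205 replicate 3, and the miR-203 call without scramble replicate 2, any 1 miR-130a array, or miR-205 replicate 1 or 3. Beyond those 14, the miR-203 rise also ended with the ACLY probe set of largest variance, where the difference was -0.09. With that probe set the miR-205 call ended too (adjusted p = 0.0731). ACACA, acetyl-CoA carboxylase, read 8.13, 8.04 and 8.03 with scramble, 8.11, 8.19 and 8.20 with miR-130a, 7.80, 7.95 and 7.76 with miR-203 and 8.68, 8.72 and 8.66 with miR-205. All miR-205 arrays were above and all miR-203 arrays below the scramble arrays. ACACA rose by 0.62 ± 0.07 with miR-205 (adjusted p = 3.51e-05) and fell by 0.23 ± 0.07 with miR-203 (adjusted p = 0.021). The miR-203 call of ACACA was lost when scramble replicate 1 (adjusted p = 0.0628), miR-203 replicate 3 (0.0727) or miR-203 replicate 1 (0.0515) was left out, with array weights (-0.15) and with the mean of its probe sets (-0.06).

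FASN, the synthase that builds palmitate, varied most among the scramble arrays. It read 7.99, 8.76 and 8.27 with scramble, 8.69, 8.56 and 8.60 with miR-130a, 8.12, 8.11 and 7.87 with miR-203 and 8.85, 8.80 and 8.72 with miR-205. Scramble replicate 2 lay within the miR-205 range, so the groups overlapped, and FASN rose by 0.45 ± 0.15 with miR-205 (adjusted p = 0.0393). That call ended under 11 of 20 alternatives (adjusted p from 0.0512 to 0.148), among them leaving out scramble replicate 1 (difference 0.28) or 3, or any 1 of the miR-205 or miR-130a arrays, and averaging its probe sets (0.23). The FASN probe set not used in the fit was dim on all arrays, with group means from 2.36 to 2.37. With miR-203 and miR-130a FASN differed from scramble by -0.31 ± 0.15 and 0.28 ± 0.15, and neither passed. Leaving out scramble replicate 1 made the miR-203 difference pass (-0.48, adjusted p = 0.014), and leaving out scramble replicate 2 the miR-130a difference (0.49, adjusted p = 0.00699). The opposite omissions moved both toward 0: the miR-203 difference was -0.10 without scramble replicate 2 (adjusted p = 0.512) and the miR-130a difference 0.11 without scramble replicate 1 (adjusted p = 0.617).

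Desaturation and elongation genes separated the groups further. SCD, which makes monounsaturated fatty acids, read 9.85, 9.91 and 9.88 with scramble, 10.24, 10.33 and 10.31 with miR-130a, 9.17, 9.54 and 9.50 with miR-203 and 10.08, 10.25 and 10.17 with miR-205. No miR-203 array reached and no miR-130a or miR-205 array fell to the scramble range. SCD rose by 0.41 ± 0.09 with miR-130a and by 0.29 ± 0.09 with miR-205, and fell by 0.47 ± 0.09 with miR-203. The miR-205 call ended under 9 of 20 alternatives (adjusted p from 0.061 to 0.413), among them leaving out any 1 scramble array or miR-205 replicate 2 or 3. Of the 4 SCD probe sets, the 2 dimmer ones gave differences of 0.13 and 0.05 with miR-203, and 0.75 and 0.83 with miR-130a. Averaged over all 4, the miR-203 call of SCD ended (-0.16, adjusted p = 0.275). FADS2, the desaturase of polyunsaturated fatty acids, read 6.74, 7.14 and 6.66 with scramble, 7.10, 7.19 and 7.17 with miR-130a, 5.81, 6.17 and 5.94 with miR-203 and 7.00, 6.92 and 6.97 with miR-205. All miR-203 arrays lay below all others, and FADS2 fell by 0.87 ± 0.12 with miR-203, 1.83-fold (adjusted p = 0.000105). It differed by 0.31 ± 0.12 with miR-130a (adjusted p = 0.08; 0.46 and 0.00735 without scramble replicate 2) and by 0.12 ± 0.12 with miR-205.

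The elongases ELOVL5 and ELOVL6, which lengthen polyunsaturated and saturated chains respectively, did not follow the same groups. ELOVL5 read 10.87, 10.88 and 10.98 with scramble, 11.28, 11.23 and 11.28 with miR-130a, 10.25, 10.43 and 10.41 with miR-203 and 10.76, 10.71 and 10.83 with miR-205. It rose by 0.35 ± 0.07 with miR-130a and fell by 0.55 ± 0.07 with miR-203 (-0.16 with the mean of its probe sets, adjusted p = 0.0915), and differed by -0.15 ± 0.07 with miR-205. ELOVL6 read 6.20, 6.07 and 5.71 with scramble and 6.57, 6.47 and 6.59 with miR-205, a rise of 0.55 ± 0.11 (adjusted p = 0.0023). With miR-130a and miR-203 it differed by 0.05 ± 0.11 and -0.14 ± 0.11, and neither passed. The miR-203 difference of ELOVL6 passed when scramble replicate 3 was left out (-0.28, adjusted p = 0.0313). It was -0.07 with miR-203 replicate 1 left out and -0.03 with scramble replicate 1 left out (adjusted p = 0.689 and 0.849). LPIN1, a phosphatidate phosphatase that feeds newly made fatty acids into glycerolipids, read 6.25, 6.14 and 5.99 with scramble, 6.24, 6.44 and 6.29 with miR-130a, 5.51, 5.53 and 5.57 with miR-203 and 6.81, 6.79 and 6.88 with miR-205. The miR-205 arrays were all above and the miR-203 arrays all below the other groups, with a rise of 0.70 ± 0.08 (adjusted p = 4.02e-05) and a fall of 0.59 ± 0.08 (adjusted p = 0.000104). With miR-130a LPIN1 differed by 0.20 ± 0.08 and did not pass (adjusted p = 0.0973). The difference was 0.26 without scramble replicate 1 (adjusted p = 0.0441) and 0.13 without scramble replicate 3 (adjusted p = 0.317). It passed with averaged probe sets (0.31, adjusted p = 0.00289) and with array weights (0.26, adjusted p = 0.0198). The probe set of largest variance passed too (0.34, adjusted p = 0.00625).

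**Figure D3:**
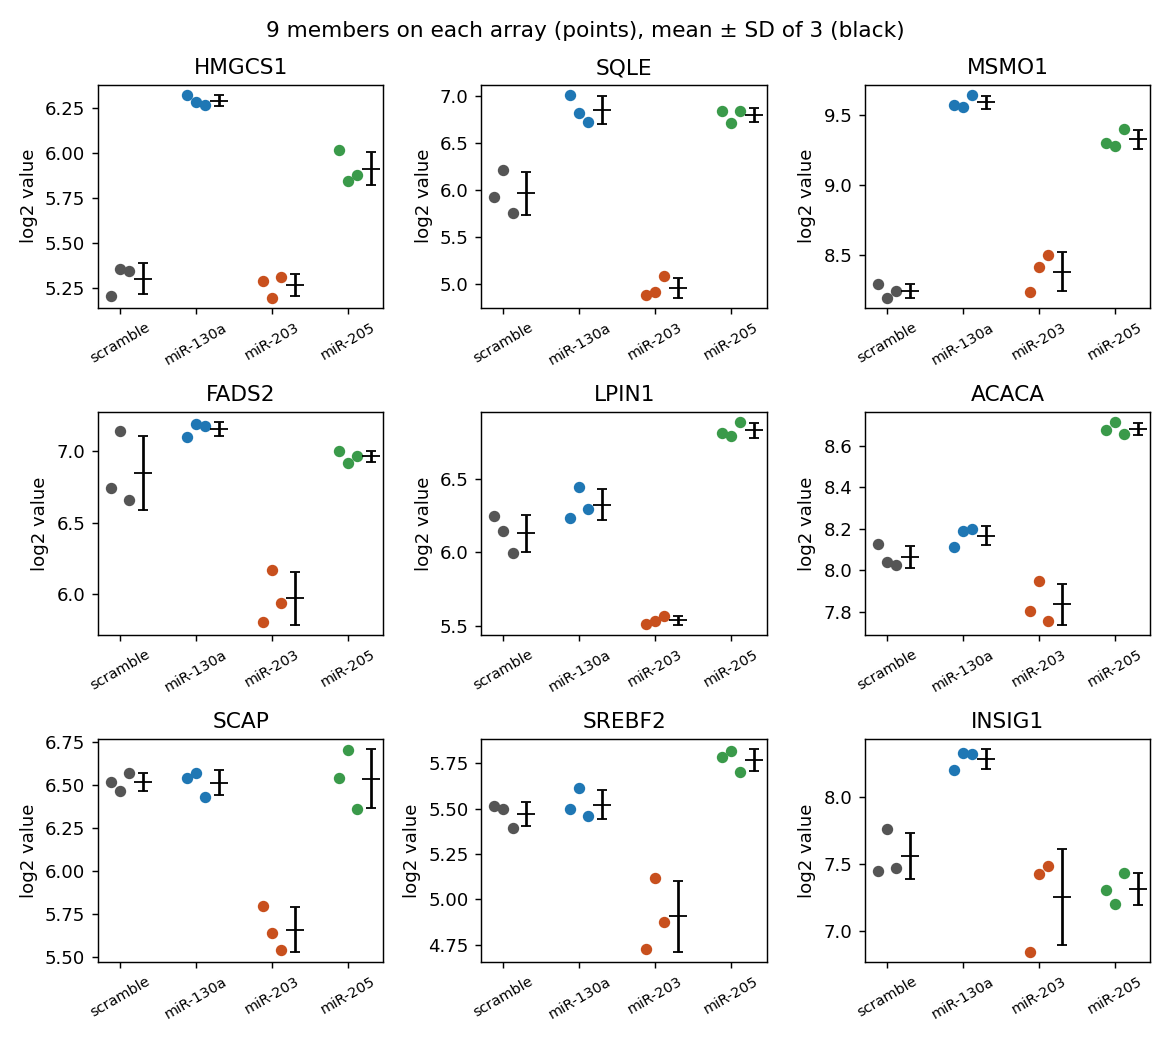
Log2 values of 9 members on each array (points) with the mean ± SD of the 3 arrays of a group (black); each panel has its own vertical range, which does not start at 0. HMGCS1 and MSMO1 are high with miR-130a and miR-205, SCAP and FADS2 are low with miR-203, LPIN1 and ACACA are highest with miR-205 and INSIG1 is highest with miR-130a.

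Of the 4 regulators of the pathway, 3 fell with miR-203, where 18.9% of all genes tested fell. SCAP, the escort protein, read 6.52, 6.46 and 6.57 with scramble, 6.54, 6.57 and 6.43 with miR-130a, 5.80, 5.63 and 5.54 with miR-203 and 6.54, 6.71 and 6.36 with miR-205. Every miR-203 array lay below every other array, and SCAP fell by 0.86 ± 0.09, 1.82-fold (adjusted p = 1.80e-05); the differences with miR-130a and miR-205 were -0.01 ± 0.09 and 0.02 ± 0.09. SREBF2, whose product mainly drives sterol genes, read 5.52, 5.50 and 5.39 with scramble, 5.50, 5.61 and 5.46 with miR-130a, 4.73, 5.12 and 4.88 with miR-203 and 5.78, 5.82 and 5.70 with miR-205. It fell by 0.56 ± 0.09 with miR-203 (adjusted p = 0.000475) and rose by 0.30 ± 0.09 with miR-205 (adjusted p = 0.0326), and the miR-205 call was lost when miR-205 replicate 1 or 2 or scramble replicate 2 or 3 was left out (adjusted p = 0.0861, 0.0889, 0.0587 and 0.109). SREBF1, whose product drives fatty acid genes, fell by 0.31 ± 0.08 with miR-203 (adjusted p = 0.00675), where its arrays read 7.25, 7.27 and 7.10 against 7.58, 7.40 and 7.56 with scramble. With miR-130a and miR-205 SREBF1 differed by -0.10 ± 0.08 and 0.09 ± 0.08.

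INSIG1, which retains SCAP and is itself a known SREBP target, was the single regulator that rose with miR-130a. It read 7.45, 7.76 and 7.47 with scramble, 8.20, 8.33 and 8.32 with miR-130a, 6.84, 7.43 and 7.49 with miR-203 and 7.30, 7.20 and 7.43 with miR-205. The 3 miR-130a arrays were above all others, and INSIG1 rose by 0.73 ± 0.15 (adjusted p = 0.00316). The miR-203 arrays spread widely, with replicate 1 the lowest array of all, and the differences of -0.31 ± 0.15 with miR-203 and -0.25 ± 0.15 with miR-205 did not pass. SREBF1, with a smaller SE, passed with miR-203 at a like difference of -0.31 ± 0.08. Without miR-203 replicate 1 the miR-203 difference was -0.10 (adjusted p = 0.5003), and leaving out scramble replicate 2 gave -0.21 (adjusted p = 0.356). Averaged INSIG1 probe sets gave -0.33, which passed (adjusted p = 0.0255). On the miR-205 arrays, where HMGCS1, IDI1, SQLE, LSS and MSMO1 rose, the INSIG1 values of the probe set used lay below all scramble values. The INSIG1 probe sets not used gave -0.32 and 0.03 with miR-205. On the miR-130a arrays all 6 genes rose.

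In the comparison of miR-130a with scramble members of both classes rose, and more sterol than fatty acid steps were tested. Of 16 sterol steps measured 7 rose (ACAT2, HMGCS1, IDI1, FDPS, SQLE, LSS and MSMO1), 2 fell (PMVK and TM7SF2) and 7 did not pass, with a median difference of 0.19. Of 8 fatty acid steps 3 rose (ACLY, SCD and ELOVL5), 0 fell and 5 did not pass, with a median of 0.25 and a range from 0.05 to 0.41. With averaged probe sets ACACA (0.19, adjusted p = 0.0266) and LPIN1 (0.31, adjusted p = 0.00289) passed as well. ACLY then lost its call (0.20, adjusted p = 0.185). Of the 4 regulators 1 rose, INSIG1, and 3 did not pass. The median over all 28 members was 0.19 and that over all genes tested -0.01. Of all genes tested 12% rose and 11.6% fell. Among 24 tested of 39 listed related genes of sterol sensing, transport and lipid synthesis, 5 rose and 5 fell. TMEM97, which affects cholesterol trafficking, rose by 0.57 ± 0.07, MYLIP, a ligase that degrades the LDL receptor, by 0.52 ± 0.09, and LBR, which has sterol reductase activity, by 0.35 ± 0.09. The largest falls were MID1IP1, which activates acetyl-CoA carboxylase, by 0.68 ± 0.11, FADS3 by 0.64 ± 0.12 and INSIG2, the relative of INSIG1, by 0.40 ± 0.10.

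With miR-203 sterol steps, fatty acid steps and regulators all held calls, and most were falls. Of 16 sterol steps 0 rose, 5 fell (ACAT2, FDPS, SQLE, TM7SF2 and SC5D) and 11 did not pass, with a median of -0.15. Of 8 fatty acid steps 1 rose (ACLY), 5 fell (ACACA, SCD, ELOVL5, FADS2 and LPIN1) and 2 did not pass, with a median of -0.39. Of the regulators 3 of 4 fell (SREBF1, SREBF2 and SCAP), with a median of -0.44. The 5 sterol falls kept their calls under all 20 alternatives, as did those of FADS2, LPIN1, SREBF1, SREBF2 and SCAP. With averaged probe sets ACLY, ACACA, SCD and ELOVL5 lost theirs (adjusted p = 0.747, 0.477, 0.275 and 0.0915). The median over all members was -0.25 and that over all genes tested 0.01. Of all genes tested 17.3% rose and 18.9% fell. Of the 24 related genes 5 rose and 7 fell. INSIG2 rose by 0.87 ± 0.10, ABCG1, a sterol exporter, by 0.72 ± 0.10 and MYLIP by 0.38 ± 0.09. SOAT1, which esterifies cholesterol, fell by 0.66 ± 0.19, MBTPS1, the protease that first cuts SREBPs, by 0.46 ± 0.08 and FADS3 by 0.41 ± 0.12.

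With miR-205, 7 of 16 sterol steps and 6 of 8 fatty acid steps rose, and the 3 decreases lay among sterol steps. Of 16 sterol steps 7 rose (HMGCS1, IDI1, SQLE, LSS, MSMO1, NSDHL and DHCR7), 3 fell (PMVK, TM7SF2 and SC5D) and 6 did not pass, with a median of 0.15. Of 8 fatty acid steps 6 rose (ACLY, ACACA, FASN, SCD, ELOVL6 and LPIN1), 0 fell and 2 did not pass, with a median of 0.47. Of the regulators 1 rose, SREBF2, and 3 did not pass. The median over all members was 0.23 and that over all genes tested -0.004. Of all genes tested 11.3% rose and 14.8% fell. Of the related genes 5 rose and 3 fell. LIPA, the lysosomal lipase that frees cholesterol from esters, rose by 0.52 ± 0.08, the malic enzyme ME1, a source of NADPH for fatty acid synthesis, by 0.45 ± 0.08 and the elongation enzyme HACD2 by 0.35 ± 0.08. TMEM97 fell by 0.38 ± 0.07, the sterol receptor gene NR1H3 by 0.29 ± 0.09 and the lysosomal cholesterol carrier NPC2 by 0.25 ± 0.08. These 3 comparisons share the scramble arrays, so values are set side by side and are not independent of each other.

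Direct comparisons between the microRNAs do not use the scramble means. Between miR-130a and miR-203, 20 members were higher with miR-130a and 1, PMVK, was lower, where 21.1% of all genes were higher and 20.1% lower. The median was 0.50 over the members and -0.02 over all genes. The largest differences were SQLE at 1.89 ± 0.11, ACAT2 at 1.70 ± 0.11, MSMO1 at 1.21 ± 0.08 and FADS2 at 1.18 ± 0.12. All 4 regulators were higher with miR-130a, INSIG1 by 1.03 ± 0.15, SCAP by 0.86 ± 0.09, SREBF2 by 0.62 ± 0.09 and SREBF1 by 0.21 ± 0.08. The SREBF1 call ended under 10 of 20 alternatives (adjusted p from 0.0509 to 0.14), among them those without any 1 miR-130a array, miR-203 replicate 1 or 3, or miR-205 replicate 3. EBP was higher by 0.40 ± 0.14 and MVK by 0.39 ± 0.11 (0.59 with its probe set of largest variance). The EBP call ended without any 1 miR-130a array or without miR-203 replicate 1 or 3 (adjusted p from 0.0525 to 0.127), and the MVK call without miR-130a replicate 2 (adjusted p = 0.0528) or miR-203 replicate 3 (adjusted p = 0.0618). Without miR-203 replicate 1, DHCR7 (adjusted p = 0.0329) and TM7SF2 (adjusted p = 0.0204) passed as well. The LSS difference of 0.35 ± 0.08 lost its call when its probe sets were averaged (0.15, adjusted p = 0.0884).

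Between miR-203 and miR-205, 0 members were higher with miR-203 and 20 were lower, where 21% of all genes were higher and 16.9% lower. All 8 fatty acid steps measured were lower with miR-203, from LPIN1 at -1.29 ± 0.08 and FADS2 at -0.99 ± 0.12 to ACLY at -0.30 ± 0.07 (-0.46 with its probe set of largest variance). Among sterol steps 9 of 16 were lower, with SQLE at -1.83 ± 0.11, 3.57-fold, as the largest difference between any groups except SQLE between miR-130a and miR-203. INSIG1 differed by -0.06 ± 0.15 and did not pass, while SCAP, SREBF2 and SREBF1 were lower with miR-203 by 0.88 ± 0.09, 0.86 ± 0.09 and 0.40 ± 0.08. The median was -0.64 over the members and 0.03 over all genes. PMVK, at 0.30 ± 0.11, did not pass (adjusted p = 0.0514), and passed without miR-203 replicate 3 (adjusted p = 0.00459) or miR-205 replicate 2 (adjusted p = 0.0233), while without miR-203 replicate 1 it was 0.197 (adjusted p = 0.197). TM7SF2 passed without miR-203 replicate 1 (-0.26, adjusted p = 0.0215). The ELOVL5 call ended with averaged probe sets (-0.18, adjusted p = 0.0688) and the SCD call with the probe set of largest variance (-0.21, adjusted p = 0.464).

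Between miR-130a and miR-205, 8 members were higher with miR-130a and 6 lower, where 18.2% of all genes were higher and 15.4% lower, and the median over the members was 0.0005. Higher with miR-130a were ACAT2 (0.55 ± 0.11), FDPS (0.49 ± 0.07), HMGCS1 (0.38 ± 0.07), EBP, MSMO1, SC5D, ELOVL5 (0.50 ± 0.07) and INSIG1 (0.97 ± 0.15). Lower were ACACA (-0.52 ± 0.07), LPIN1 (-0.50 ± 0.08), ELOVL6 (-0.50 ± 0.11), ACLY, LSS and NSDHL. Thus 4 of 8 fatty acid steps were lower and 1 higher, and 6 of 16 sterol steps were higher and 2 lower. SQLE (0.05 ± 0.11) and IDI1 (0.07 ± 0.08), raised by both microRNAs against scramble, did not pass here. The EBP call ended without miR-130a replicate 1 or 2 or miR-205 replicate 1 or 2 (adjusted p from 0.0694 to 0.099), the MSMO1 call without miR-130a replicate 3 or miR-205 replicate 1 or 2 (adjusted p from 0.0592 to 0.0696), and the SC5D call without miR-130a replicate 2 (adjusted p = 0.0608) or miR-205 replicate 3 (adjusted p = 0.0521). With averaged probe sets the SC5D call also ended (0.09, adjusted p = 0.228), where 1 of its probe sets was dim on all arrays. ELOVL5 was then higher by 0.28 (adjusted p = 0.00832). With the probe set of largest variance the ACLY call ended (adjusted p = 0.285). Calls were gained for SREBF2 without miR-203 replicate 1 or 2 (adjusted p = 0.0306 and adjusted p = 0.0274), for MVK without miR-203 replicate 1 or 3 or scramble replicate 3, for PMVK without miR-203 replicate 1 or 3, and for DHCR7 without miR-203 replicate 1 or scramble replicate 1, with adjusted p between 0.026 and 0.0498.

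The shift of the sterol steps was set against that of the fatty acid steps on each array, as the mean of the measured members of each class minus the scramble mean. With miR-130a the sterol mean was 0.34 ± 0.02 (SD, n = 3) and the fatty acid mean 0.24 ± 0.02 (SD, n = 3) above scramble. With miR-205 the order was turned, at 0.25 ± 0.02 for sterol steps and 0.38 ± 0.01 for fatty acid steps. With miR-203 the sterol mean was -0.23 ± 0.06 and the fatty acid mean -0.37 ± 0.08, so the fatty acid steps lay lower. The scramble arrays themselves spread by 0.04 and 0.09 (SD). The difference, sterol minus fatty acid steps, was 0.11 ± 0.04 with miR-130a, 0.14 ± 0.09 with miR-203 and -0.13 ± 0.03 with miR-205, against 0 ± 0.06 with scramble. The miR-203 value was 0.09 without miR-203 replicate 1 and 0.06 with averaged probe sets. All 3 miR-205 arrays (-0.15 to -0.10) lay below all scramble arrays (-0.06 to 0.05), and all miR-130a and miR-203 arrays lay above them (0.07 to 0.14 and 0.08 to 0.24). Without ACLY and LPIN1 among the fatty acid steps, the first of which also feeds sterols, the miR-205 difference was -0.06. No test is given for these class means, since the members were chosen with results of these data known.

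**Figure D4:**
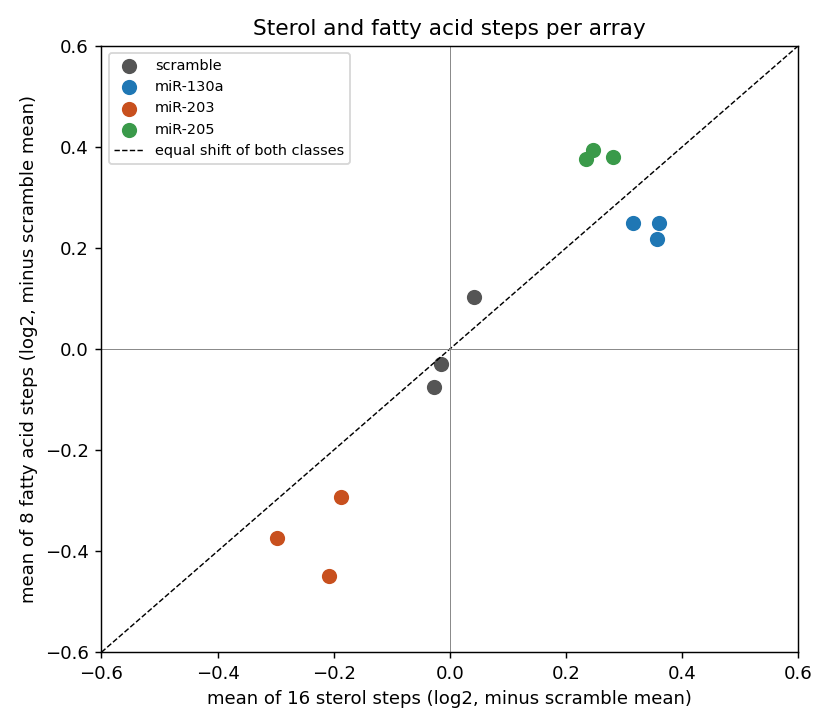
Each point is 1 array: the mean of 16 sterol steps (horizontal axis) against the mean of 8 fatty acid steps (vertical axis), both in log2 units minus the scramble mean; the dashed line marks an equal shift of both classes. The miR-205 points lie above the line, the miR-130a and miR-203 points below it, and the miR-203 points are negative on both axes.

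The remaining 4 members were not tested. FDFT1 and ACSS2 were not analysed here, and CYP51A1 and FADS1 are read only by probe sets whose annotation names a second gene. The brighter CYP51A1 probe set, shared with LRRD1, read from 6.83 to 6.93 with scramble, 6.76 to 7.19 with miR-130a, 6.51 to 7.36 with miR-203 and 7.14 to 7.34 with miR-205. The dimmer one, also shared with LRRD1, read from 5.72 to 6.33 with scramble and 6.67 to 6.75 with miR-130a. It read from 5.97 to 6.33 with miR-203 and 6.39 to 6.52 with miR-205. In the dimmer one all miR-130a and miR-205 values lay above the scramble values. The brightest FADS1 probe set, shared with MIR1908, read from 6.42 to 6.64 with scramble, 6.67 to 6.78 with miR-130a, 5.57 to 5.87 with miR-203 and 5.94 to 6.16 with miR-205. Here all miR-203 and miR-205 values lie below the scramble values, and the gene behind them is not settled. Where a measured member had several probe sets above the array median, some gave like differences and others did not. HMGCS1 was higher in both of its probe sets with miR-130a (0.99 and 1.25), as did IDI1 (0.76 and 0.89), and the 3 SQLE probe sets gave 0.88, 0.76 and 0.76 with miR-130a. With miR-203 the SQLE probe sets not used in the fit gave -0.52 and -0.50. The 3 LPIN1 probe sets gave 0.70, 0.78 and 0.77 with miR-205. MVK probe sets disagreed, with 0.19, 0.46 and -0.20 with miR-130a. Directions also differed with miR-203 for some members, among them ACACA (-0.23 and 0.12), ELOVL5 (-0.55, -0.004 and 0.06) and HMGCS1 (-0.04 and 0.23).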

How the data were processed

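The authors deposited a table of log2 values for 22277 probe sets on 12 arrays; the submitters' processing notes list RMA, limma and R 2.9.0 without a role for any of them, and the background method is not given in the sources used here. Values run from 2.36, a floor shared by many probe sets, to 13.95. Gene symbols came from the platform annotation (19070 with 1 symbol, 1043 with several, 2164 with none), and all 32 member symbols are in the GRCh38.p14 gene table. Each gene was read by its probe set of highest mean over the 12 arrays and tested if above the array median on at least 3 arrays. Group means over 12 arrays were fitted with limma 3.58.1 in R 4.3.3 (lmFit and eBayes, with 8 degrees of freedom from residuals and 4.84 from the prior) and adjusted by Benjamini-Hochberg over 6821 genes, two-sided, at a threshold of 0.05. The procedure was tested on simulated data. Members, lists and tests were chosen with earlier results of these data known. Every measured member is named; related genes are named by the 3 largest changes per direction against scramble. Alternatives changed the filter, the probe set, the scaling, array weights, the arrays in the fit, the replicate block, or left out 1 array. Same-numbered arrays of miR-203 and miR-205 deviated together from their group means at each of the 3 numbers (r = 0.171, 0.105 and 0.313). The numbers were therefore treated as possibly pairing these groups, from the data and not from a label. No other pair of groups had r over 0.1 at any number, but miR-130a with miR-203 came near it (r = 0.094, 0.047 and 0.097). The check covers same-numbered arrays only, so it cannot settle which groups are paired.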

Additional observations from a re-analysis of the deposited data

How the results depend on the processing

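Alternatives moved the number of members called by less than 1.5 times in every comparison, F-test included. Leaving out 1 array gave 12 to 15 calls for miR-130a against scramble (13 with all arrays), 12 to 15 for miR-203 (14) and 13 to 17 for miR-205 (17). For miR-203 against miR-205, whose numbers may pair, the replicate number as a block changed no member's call, over all 12 arrays or over these 6. Each fit gave 20 calls, and the fit of 6 was added after the data were seen. In the other comparisons same-numbered arrays correlated with r between -0.112 and 0.0965, and whether they pair is not settled. With the replicate number as a block there the counts against scramble were 13, 14 and 17, SREBF1 lost its call between miR-130a and miR-203 (adjusted p = 0.0607) and SREBF2 gained one between miR-130a and miR-205 (adjusted p = 0.0406). The direction of a called member reversed in 2 cases, both with the probe set of largest variance and miR-203 against scramble: ACLY at -0.089 and SCD at 0.045; the cause was not tested. Sterol minus fatty acid steps moved by more than the spread between arrays in 5 cases. When probe sets were averaged per gene it was 0.064 for miR-203 against scramble (0.14 in the main setting) and 0.20 for miR-203 against miR-205 (0.27). Without ACLY and LPIN1 it was -0.060 for miR-205 against scramble (-0.13), -0.10 for miR-130a against miR-203 (-0.04) and 0.15 for miR-130a against miR-205 (0.24). With 1 array left out it lay between 0.09 and 0.17 for miR-203 against scramble and between -0.07 and 0.01 for miR-130a against miR-203. Across single members and alternatives 3208 outcomes kept direction and side of the threshold, 113 lost a call and 65 gained one. The number of arrays limits what could be called.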
